A study of Mus musculus with 69 samples.

Results

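The 10 genes described here make, sense, carry and destroy prostaglandins. They were taken by symbol from the 24411 genes of the deposited count table as Ptgs1, Ptgs2, Ptges, Ptger1, Ptger2, Ptger3, Ptger4, Ptgfr, Hpgd and Slco2a1, and all 10 were found. All of them were among the 21175 genes tested, which had at least 2 reads summed over the 69 libraries.

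The libraries came from kidneys of mice with the genotype Hoxb7Cre;UPRTf/+ or Atp6b1v1Cre;UPRTf/+, the latter Cre being written Atp6v1b1Cre in the study. Cre removes a stop cassette and so switches on the enzyme Uprt, which lets cells build 4-thiouracil (4-TU) into new RNA. All mice received 4-TU at 430 mg/kg for 4 hours, and tagged RNA was biotinylated and pulled down from whole kidney RNA. Hoxb7Cre acts in the collecting duct and the other driver in a subset of its cells that is rich in intercalated cells; the study notes that some of the latter signal may come from interstitial cells. At 5.5 months, Hoxb7 pulldowns were made from control mice (4 females, 4 males), from mice with iAKI, which is 10 minutes of clamping of both renal pedicles with labeling 24 hours later (3 females, 4 males), and from mice with vAKI, which is volume depletion for 72 hours (4 females, 3 males). For volume depletion the study restricted access to both water and food, so loss of fluid and lack of food cannot be told apart. The Atp6b1v1 pulldowns of 5.5 months held 4 female and 4 male controls, 3 females and 3 males with iAKI, and 3 females and 4 males with vAKI. A further 2 female Hoxb7 and 3 male Atp6b1v1 control pulldowns came from mice of 3 months. Total kidney RNA of control mice gave 21 libraries of both genotypes, from 8 females and 8 males of 5.5 months and 2 females and 3 males of 3 months.

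Prostaglandins are made from arachidonic acid, which phospholipases release from membranes. The cyclooxygenases Ptgs1 and Ptgs2 turn it into prostaglandin H2, from which terminal synthases such as Ptges make the individual products. Prostaglandin E2 acts on the receptors encoded by the Ptger genes, and prostaglandin F2 alpha on the receptor encoded by Ptgfr. In the kidney prostaglandin E2 lowers the reabsorption of salt and water in the collecting duct and helps to hold up blood flow when the circulating volume falls. Slco2a1 carries prostaglandins into cells, where Hpgd oxidises and so inactivates them.

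Levels are given as CPM, read counts scaled to library size with trimmed mean of M-values factors over the 69 libraries. Between genes they are compared as CPM per kilobase of exon, with the summed exon length of each gene in GENCODE M21 (GRCm38). In the 21 libraries of total kidney RNA, the highest medians were those of Ptgfr (10.7 CPM per kilobase, range 5.36 to 17.8), Ptger3 (10.7, 7.59 to 16.1), Ptgs1 (9.83, 6.49 to 13.5), Ptges (9.70, 6.73 to 13.8) and Hpgd (8.35, 5.63 to 30.8). The ranges of these neighbours overlapped, and the order differed between the sexes: Hpgd was first in females (median 23.5 CPM per kilobase, Ptgfr 12.01) and below Ptgfr, Ptger3, Ptges and Ptgs1 in males (7.13, Ptgfr 10.2). Ptger1 (5.52) and Slco2a1 (3.51) followed. Ptgs2 (1.08) and Ptger4 (0.935) lay lower, and Ptger2 (0.0548) lay lowest, with a median of 7 and at most 28 reads in a library. In the Hoxb7 controls Ptges led (median 32.7 CPM per kilobase, n = 10), and in the Atp6b1v1 controls Ptgfr led (26.4, n = 11).

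Promoters of the members on which the results turn most are shown, each as the window from 250 bases before to 50 after the RefSeq start of the gene (GRCm38.p6), on the strand of the gene. In males, Ptgs2 (chr1:150099781-150100080, plus strand) and Ptger4 (chr15:5244138-5244437, minus strand) rose and Ptger3 (chr3:157566626-157566925, plus strand) fell under volume depletion in both drivers, and the response of Ptges (chr2:30903248-30903547, minus strand) differed between the drivers. Capitals mark matches, on either strand, to the core of the cyclic AMP response element (TGACGT), an AP-1 site (TGANTCA), an E-box (CACGTG), a GC box (GGGCGG) or a TATA box (TATAAA).
Ptgs2: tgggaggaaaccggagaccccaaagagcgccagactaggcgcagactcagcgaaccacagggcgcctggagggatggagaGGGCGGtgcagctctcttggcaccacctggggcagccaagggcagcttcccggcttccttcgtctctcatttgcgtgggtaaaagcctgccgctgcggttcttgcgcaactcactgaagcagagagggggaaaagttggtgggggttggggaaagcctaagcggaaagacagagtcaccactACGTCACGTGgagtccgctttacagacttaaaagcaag
Ptger4: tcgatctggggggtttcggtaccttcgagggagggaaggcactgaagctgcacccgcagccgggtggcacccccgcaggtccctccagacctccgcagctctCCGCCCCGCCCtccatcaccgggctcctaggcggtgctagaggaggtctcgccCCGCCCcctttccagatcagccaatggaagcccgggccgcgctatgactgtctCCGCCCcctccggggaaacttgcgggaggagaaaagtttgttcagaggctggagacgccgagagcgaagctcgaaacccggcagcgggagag
Ptger3: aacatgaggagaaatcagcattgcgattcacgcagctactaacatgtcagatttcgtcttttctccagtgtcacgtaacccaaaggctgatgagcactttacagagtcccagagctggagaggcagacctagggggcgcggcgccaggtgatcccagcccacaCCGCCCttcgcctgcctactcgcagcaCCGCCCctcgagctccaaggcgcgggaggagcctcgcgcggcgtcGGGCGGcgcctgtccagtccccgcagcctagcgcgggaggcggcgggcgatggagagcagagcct
Ptges: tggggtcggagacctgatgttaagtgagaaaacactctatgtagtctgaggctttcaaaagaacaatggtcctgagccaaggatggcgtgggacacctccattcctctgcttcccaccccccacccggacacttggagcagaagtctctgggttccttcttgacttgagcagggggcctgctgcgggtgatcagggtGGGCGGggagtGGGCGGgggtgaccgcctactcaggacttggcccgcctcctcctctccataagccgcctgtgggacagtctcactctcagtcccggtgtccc

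RefSeq promoter entries were matched for 9 of the 10 members, all but Ptger1. The Ptgs2 window held a GC box 170 bases before the start and, beginning 12 bases after it, the response element core on the minus strand overlapping an E-box. Neither of the latter motifs was found in the other 8 windows, and they occurred in 7.51% and 7.15% of all 32851 promoter entries. The GC box was found in 7 of the 9 windows, 4 times in that of Ptger4, against 35.7% of all entries. The TATA box was found in 2 of the 9 (Hpgd and Slco2a1) against 13.6%, and the AP-1 site in 0 of the 9 against 7.81%. These matches describe the letters only.

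Total counts ran from 12618062 to 30305464 per library, and the 9 members other than Ptger2 had at least 28 reads in every library. The pulldowns were rich in the markers of their Cre domains but not free of others. In Hoxb7 controls the sum of 6 principal cell markers (Aqp2, Aqp3, Aqp4, Avpr2, Scnn1b, Scnn1g) had a median of 2310.0 CPM against 867 in total RNA, and in Atp6b1v1 controls 5 intercalated cell markers had 895 against 320.2. The sum of 4 proximal tubule markers had medians of 1671 CPM in Hoxb7 and 1578 CPM in Atp6b1v1 controls, against 10162 in total RNA. In bulk RNA, fewer cells of a type and less RNA per cell cannot be told apart. Some libraries stood apart. The immediate early gene Fos was at 84.5 to 133 CPM in the female Hoxb7 controls 6, 9 and 10, against at most 24.5 CPM in the other 18 control pulldowns, and at 40.3 to 60.96 CPM in 3 total RNA libraries (12, 17 and 18). The vitamin D hydroxylase Cyp27b1 was at 39.5 to 211 CPM in 11 vAKI pulldowns, but at 10.97 to 20.3 CPM, within the range of the control pulldowns, in the vAKI Hoxb7 females 1, 2 and 3. The study counts its samples as mice or independent RNA samples, while the labels give no mouse identity.

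**Figure D1:**
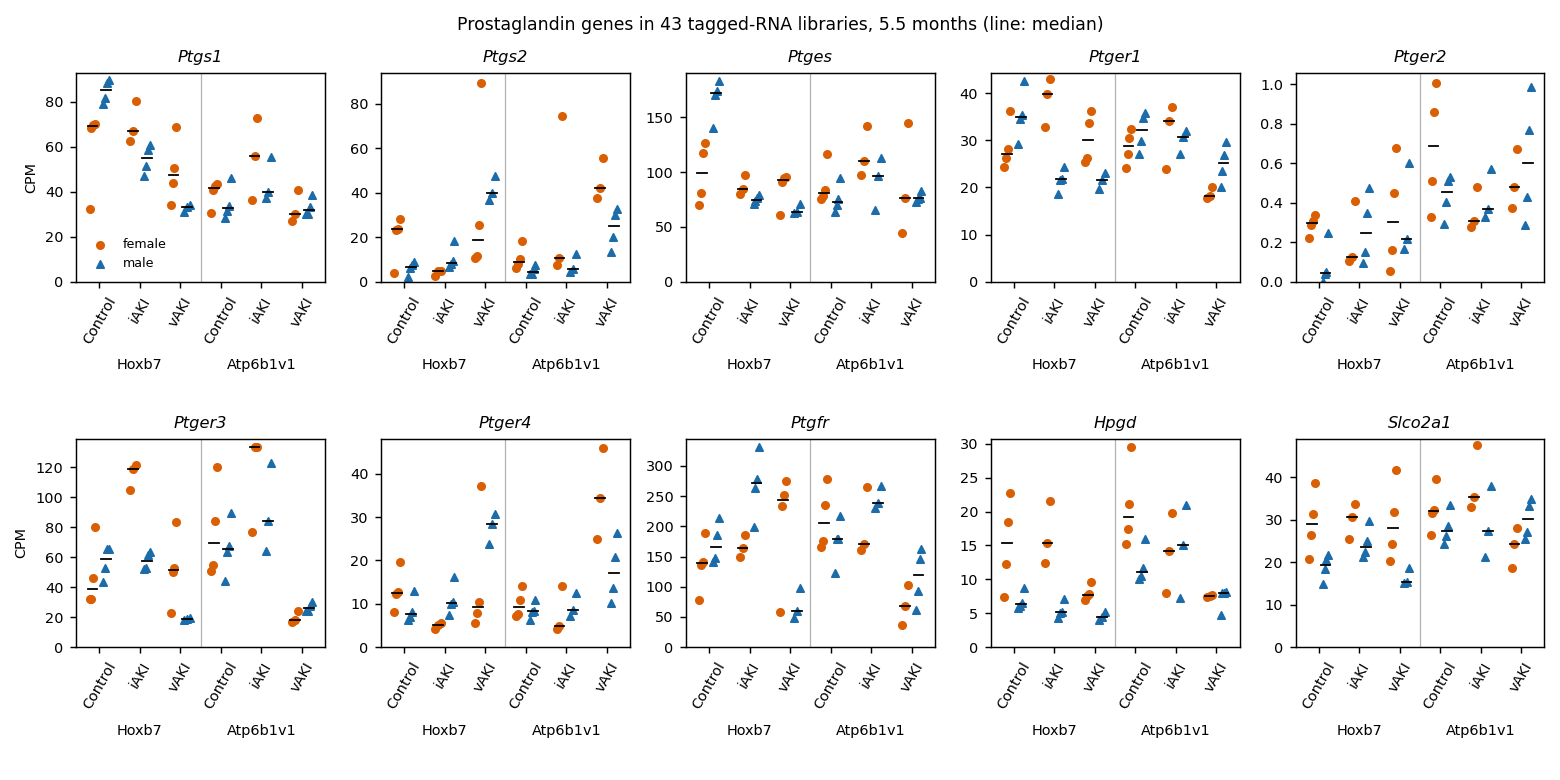
Level of each of the 10 genes in CPM (y axes, linear, from 0) in the 43 pulldown libraries of 5.5 months, by driver and treatment, with females as circles, males as triangles and black lines at the median of each sex. In males the median of Ptgs2 and of Ptger4 was highest, and that of Ptger3 lowest, under vAKI in both drivers, while Ptgs1 and Ptges of Hoxb7 males lay below all male controls under both injuries.

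Volume depletion in males changed 7 of the 10 genes in the Hoxb7 pulldowns (adjusted p below 0.05, edgeR quasi-likelihood test, adjusted over all genes tested) and 3 of 10 in the Atp6b1v1 pulldowns. Of all genes, 35.5% and 14.6% passed in the same comparisons. The vAKI and control libraries did not overlap in 39.5% and 14.4% of all genes. Ptgs2 and Ptger4 rose and Ptger3 fell in both drivers. Ptgs1, Ptges, Ptger1 and Ptgfr fell in the Hoxb7 pulldowns. With females included, 4 of the Hoxb7 calls were lost: Ptger1 (-0.29, adjusted p = 0.23), Ptger3 (-0.58, adjusted p = 0.144), Ptger4 (0.91, adjusted p = 0.0713) and Ptgfr (-0.05, adjusted p = 0.957), and Hpgd passed (-0.78, adjusted p = 0.036). In the Atp6b1v1 pulldowns that fit added Ptger1 (-0.42, adjusted p = 0.0397), Ptgfr (-1.03, adjusted p = 0.0108) and Hpgd (-1.01, adjusted p = 0.00268).

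Among the enzymes of synthesis, Ptgs2, the inducible cyclooxygenase, stood at 6.03, 1.99, 8.79 and 7.73 CPM in the 4 male Hoxb7 controls and at 39.9, 47.8 and 36.7 CPM in the 3 with vAKI. All vAKI libraries lay far above all controls, with a log2 fold change of 2.76 ± 0.43 (SE; adjusted p = 3.44e-05). In the Atp6b1v1 pulldowns Ptgs2 was at 3.39, 5.71, 3.56 and 7.64 CPM in controls and at 13.5, 20.2, 30.1 and 32.8 CPM under vAKI. The groups again did not overlap, and the log2 fold change was 2.25 ± 0.41, adjusted p = 0.00109. Fos moved with Ptgs2: it was at 3.41 to 17.9 CPM in male Hoxb7 controls and 94.8 to 142 CPM under vAKI, and at 2.14 to 11.9 and 8.45 to 76.6 CPM in the Atp6b1v1 males. Its part in the rise of Ptgs2 was not tested.

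Ptgs1, the cyclooxygenase known from collecting duct cells, moved the opposite way in the Hoxb7 pulldowns. It was at 81.8, 88.4, 89.6 and 78.9 CPM in male controls and at 30.96, 34.05 and 33.2 CPM under vAKI, a fall with no overlap (log2 fold change -1.37 ± 0.16, adjusted p = 1.42e-06). The Atp6b1v1 pulldowns had 28.3 to 46.01 CPM in controls and 30.1 to 38.6 CPM under vAKI, and the groups overlapped (-0.06 ± 0.14, adjusted p = 0.844). Ptges, an inducible prostaglandin E synthase, followed the pattern of Ptgs1. It stood at 174, 183, 171 and 140.2 CPM in the male Hoxb7 controls and at 63.7, 62.7 and 71.2 CPM under vAKI, again without overlap (-1.34 ± 0.16, adjusted p = 1.55e-06). In Atp6b1v1 males it was at 63.8 to 94.9 and 73.2 to 82.4 CPM (0.03 ± 0.14, adjusted p = 0.95).

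Among the receptors, Ptger4, which encodes the EP4 receptor that raises cyclic AMP, stood at 7.04, 6.35, 12.9 and 8.15 CPM in male Hoxb7 controls and at 30.8, 23.8 and 28.4 CPM under vAKI. Every vAKI library exceeded every control (1.69 ± 0.30, adjusted p = 0.00015). In the Atp6b1v1 pulldowns it was at 6.24, 8.13, 8.40 and 10.9 CPM in controls and at 10.2, 13.6, 20.8 and 26.4 CPM under vAKI. The lowest vAKI library lay within the controls, and the rise (1.08 ± 0.28, adjusted p = 0.014) did not pass without control 6 (0.96, adjusted p = 0.0582) or without vAKI 7 (0.82, adjusted p = 0.0752). The levels of 10.2 and 13.6 CPM came from vAKI 1 and 2. Those of 20.8 and 26.4 CPM came from vAKI 6 and 7, whose library numbers belong to a separate series. Ptgs2 and Ptgfr were likewise further from the controls in vAKI 6 and 7. In GENCODE M21, 82 exon bases of Ptger4 (1.23%) are shared with Ttc33 on the opposite strand, and Ttc33 fell where Ptger4 rose (-1.01 in Hoxb7 and -0.49 in Atp6b1v1 pulldowns). The counts were made with default settings of HTSeq from a TruSeq RNA kit, which the labels name without saying whether it kept strand, so reads of genes that overlap on opposite strands may not be told apart, and this limit holds for any of the 10 genes with such a neighbour.

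Ptger3, which encodes the EP3 receptor that lowers cyclic AMP, fell in both drivers. In the Hoxb7 pulldowns it was at 65.5, 65.2, 52.6 and 43.4 CPM in male controls and at 19.6, 19.03 and 17.97 CPM under vAKI (-1.58 ± 0.21, adjusted p = 5.89e-06). In Atp6b1v1 males it was at 89.6, 67.5, 63.4 and 44.1 CPM in controls and at 24.4, 27.2, 29.9 and 24.4 CPM under vAKI (-1.30 ± 0.19, adjusted p = 0.000147). Neither pair of groups overlapped. Ptgfr fell in the Hoxb7 pulldowns, from 214, 185, 148 and 141 CPM to 97.97, 60.2 and 47.5 CPM (-1.32 ± 0.28, adjusted p = 0.000834). Its Atp6b1v1 groups overlapped, at 123 to 217 and 61.1 to 162 CPM (-0.58 ± 0.25, adjusted p = 0.132), and it passed without vAKI 1 (-0.78, adjusted p = 0.0357).

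Ptger1, which encodes the EP1 receptor that raises intracellular calcium, was at 35.4, 42.6, 34.6 and 29.2 CPM in male Hoxb7 controls and at 19.7, 21.6 and 23.03 CPM under vAKI, without overlap (-0.72 ± 0.15, adjusted p = 0.000658). Its Atp6b1v1 levels were 27.1 to 35.7 and 20.03 to 29.6 CPM (-0.33 ± 0.14, adjusted p = 0.109), and it too passed without vAKI 1 (-0.42, adjusted p = 0.0372). Ptger2, which encodes the EP2 receptor, had 1, 1, 5 and 0 reads in the male Hoxb7 controls and 12, 6 and 4 under vAKI. At these counts no fold is given; the difference did not pass with edgeR (adjusted p = 0.0534) and passed with DESeq2 (adjusted p = 0.0341) and without any of 5 libraries (adjusted p = 0.00709 to 0.05).

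Neither gene of uptake and breakdown passed under vAKI in males, though Hpgd was lower in every vAKI library than in every control. It was at 5.81, 6.10, 8.74 and 6.56 CPM in Hoxb7 controls and at 5.14, 4.45 and 3.99 CPM under vAKI (-0.58 ± 0.28, adjusted p = 0.109). In Atp6b1v1 males it was at 10.1, 11.6, 15.9 and 10.5 CPM in controls and at 8.14, 4.74, 7.93 and 7.99 CPM under vAKI (-0.73 ± 0.25, adjusted p = 0.0511). This difference lay at the threshold: it passed with DESeq2 (adjusted p = 0.0294), without vAKI 1 (-0.80, adjusted p = 0.0414) and without any of 4 libraries outside the contrast. Slco2a1 overlapped between the groups in both drivers (-0.20 ± 0.19, adjusted p = 0.439, and 0.12 ± 0.17, adjusted p = 0.695).

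**Figure D2:**
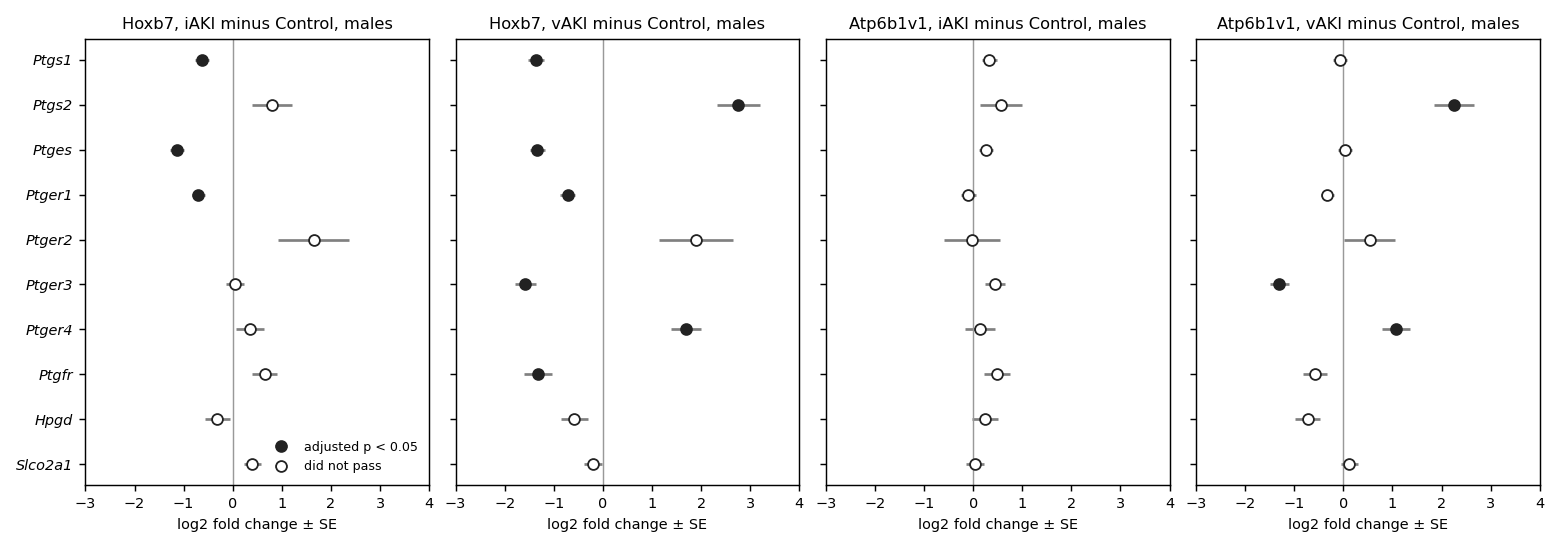
Log2 fold change of each gene against male controls (x axes, with bars of 1 SE) for iAKI and vAKI in the Hoxb7 and Atp6b1v1 pulldowns; filled points passed at adjusted p below 0.05 and open points did not. Under vAKI Ptgs2 reached 2.76 and 2.25 and Ptger3 -1.58 and -1.30 in the Hoxb7 and Atp6b1v1 pulldowns, while Ptgs1 and Ptges have filled points in the Hoxb7 panels alone.

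Ischemia changed fewer of the genes in males. In the Hoxb7 pulldowns 3 of the 10 passed, all of them lower (Ptgs1, Ptges and Ptger1), against 6.13% of all genes. In the Atp6b1v1 pulldowns 0 of 10 passed with edgeR and with DESeq2, against 8.51% of all genes. With edgeR 2 of the 10, and 5066 of all 21175 genes, had an unadjusted p below 0.05. The iAKI and control libraries did not overlap in 15.8% of all genes in Hoxb7 and 20.8% in Atp6b1v1 pulldowns. Ptges was at 79.3, 73.7, 76.1 and 70.9 CPM in the Hoxb7 iAKI males, less than in any male control (-1.14 ± 0.14, adjusted p = 0.000116). Ptgs1 was at 51.4, 60.8, 58.5 and 47.02 CPM (-0.63 ± 0.14, adjusted p = 0.0113) and Ptger1 at 21.6, 21.9, 18.5 and 24.3 CPM (-0.70 ± 0.14, adjusted p = 0.0046), again without overlap. With females included, Ptgs1 (-0.26, adjusted p = 0.436) and Ptger1 (-0.17, adjusted p = 0.601) did not pass.

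Ptgs2 was at 6.87, 18.3, 9.25 and 7.91 CPM in these libraries, a single one standing above the rest, and it did not pass (0.80 ± 0.40, adjusted p = 0.267). Ptgs2 and Ptger4 passed when the series of library numbers was fitted as a term (1.32, adjusted p = 0.0103, and 0.75, adjusted p = 0.0215); all iAKI libraries belong to 1 series and the male controls to 2. Ptgfr stood at 278, 264, 331 and 199 CPM (0.65 ± 0.25, adjusted p = 0.131). The fold changes of Ptger3 (0.04), Ptger4 (0.36), Hpgd (-0.31) and Slco2a1 (0.40) did not pass.

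The ischemic Atp6b1v1 males had Ptgs1 at 55.7, 40.1 and 37.1 CPM (0.33 ± 0.15, adjusted p = 0.185) and Ptges at 113, 65.4 and 96.3 CPM (0.26 ± 0.15, adjusted p = 0.306), overlapping with their controls. Ptgs1 passed without control 10 (0.49, adjusted p = 0.0436). Ptgfr was at 267, 229.6 and 238 CPM, above each of the 4 controls, and did not pass (0.48 ± 0.27, adjusted p = 0.286). The other members overlapped with their controls.

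Principal cell markers were lower under both injuries in the male Hoxb7 pulldowns, as Ptgs1, Ptges and Ptger1 were. The sum of the 6 markers was 2694 to 3439 CPM in controls, 1005 to 1254 CPM under iAKI and 1109.9 to 1213 CPM under vAKI, and Aqp2 alone was at 1657 to 2168, 519 to 627 and 599 to 779 CPM. Over the 24 Hoxb7 pulldowns of both sexes and all treatments, which share treatments and library series, the log2 sum correlated with the log2 levels of Ptges (Pearson's r = 0.898), Ptger1 (0.82) and Ptgs1 (0.78). In the same libraries r was 0.528 for Ptger3 and 0.296 for Ptgfr, which fell in Hoxb7 males under vAKI alone. It was -0.656 for Ptgs2 and -0.596 for Ptger4, which rose in those males under vAKI. Sums of 3 other lists were lower in the Hoxb7 males under vAKI than in any control. That of 4 markers of the thick ascending limb and macula densa was 1337 to 2330.5 CPM in controls, 1783 to 2017 under iAKI and 776 to 865 under vAKI (1 rose and 2 fell of 4), and that of 3 distal convoluted and connecting tubule markers 463 to 766, 639 to 698 and 225 to 313 (0 rose and 2 fell of 3). The sum of 6 leukocyte markers was 55.1 to 75.6 in controls and 43.4 to 53.5 under vAKI (1 rose and 3 fell of 6). Of 4 adipocyte markers, 4 fell under iAKI and 3 under vAKI, at sums of 46.3 to 124, 11.7 to 33.1 and 40.8 to 62.1 in controls, iAKI and vAKI, and the 5 intercalated cell markers summed to 535 to 866, 555 to 577 and 387 to 644, with overlap between the groups.

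Sums of 5 endothelial markers were 89.8 to 170.1 CPM in Hoxb7 male controls, 164 to 204 under iAKI, where 0 of 5 passed with edgeR, and 188 to 245 under vAKI, where 1 rose and 0 fell of 5. Those of 4 fibroblast markers were 23.99 to 48.03, 63.2 to 118 (2 rose and 0 fell of 4) and 55.4 to 82.9 (1 rose and 0 fell of 4). Sums of 4 smooth muscle and pericyte markers were 43.2 to 74.5 in controls, 68.8 to 135.8 under iAKI and 77.6 to 110.7 under vAKI. In the male Atp6b1v1 pulldowns the principal cell sum was 782 to 804 CPM in controls, 696 to 941 under iAKI and 661 to 877 under vAKI. The intercalated cell sum of this driver was 669.6 to 895, 579 to 1413 and 441 to 593 (0 rose and 2 fell of 5 under vAKI), and the distal convoluted and connecting tubule sum 539.7 to 1146, 649.6 to 963 and 225 to 396 (0 rose and 2 fell of 3). Both lay below every control under vAKI. Over the 24 Atp6b1v1 pulldowns, which share treatments and library series, the log2 intercalated cell sum correlated with the log2 levels of Ptger4 (Pearson's r = -0.822), Hpgd (0.809), Ptger3 (0.782), Ptger1 (0.752) and Ptgs2 (-0.713). No marker on these lists had a median of 0 in any group. The part of these shifts in the changes of the members was not tested.

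**Figure D3:**
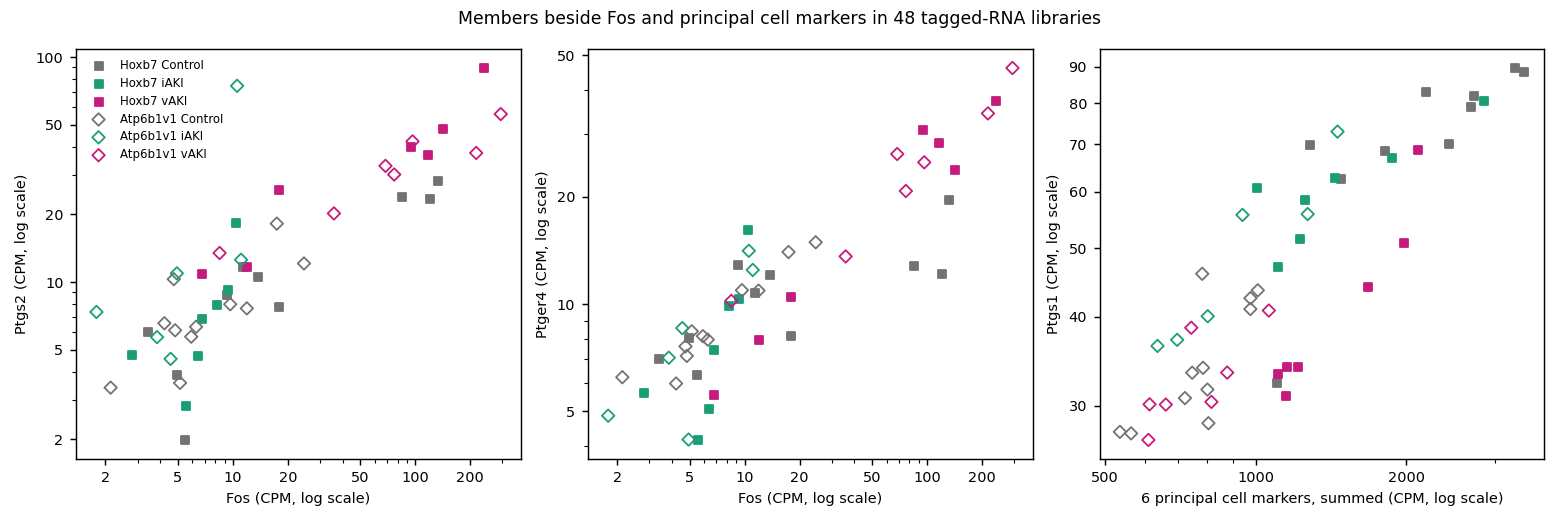
Levels of Ptgs2 and Ptger4 against Fos, and of Ptgs1 against the sum of 6 principal cell markers, in the 48 pulldown libraries (all axes in CPM on log scales; filled squares Hoxb7, open diamonds Atp6b1v1; gray control, green iAKI, magenta vAKI). Pearson's r of the log2 levels was 0.842, 0.895 and 0.868 across libraries, and the 3 gray squares at Fos of 84.5 to 133 CPM are the female Hoxb7 controls 6, 9 and 10.

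Set directly against each other in males, vAKI and iAKI differed in 6 of the 10 genes in the Hoxb7 pulldowns (33.3% of all genes) and in 5 of 10 in the Atp6b1v1 pulldowns (29.3%). In both drivers vAKI had more Ptgs2 (log2 difference 1.96 ± 0.42 in Hoxb7, 1.68 ± 0.44 in Atp6b1v1) and more Ptger4 (1.33 ± 0.30 and 0.93 ± 0.31). It had less Ptger3 (-1.62 ± 0.21 and -1.75 ± 0.20) and less Ptgfr (-1.97 ± 0.29 and -1.06 ± 0.27). Ptgs1 (-0.74 ± 0.16) and Slco2a1 (-0.60 ± 0.19) were lower in vAKI in the Hoxb7 pulldowns, and Hpgd (-0.98 ± 0.26) in the Atp6b1v1 pulldowns. Adjusted p-values of these 11 differences ran from 3.5e-06 to 0.0261. Slco2a1 did not pass without iAKI 5, vAKI 6 or vAKI 7 (adjusted p = 0.0652, 0.0681 and 0.0683). Of the Atp6b1v1 differences, Ptger4 did not pass without iAKI 1, iAKI 4, vAKI 6 or vAKI 7 (adjusted p = 0.101, 0.13, 0.0634 and 0.114), Hpgd did not pass without iAKI 4 (0.101), and Ptges passed without iAKI 4 (-0.44, adjusted p = 0.0303). Ptgs1 lay at the threshold there (-0.39 ± 0.15, adjusted p = 0.0573) and passed with DESeq2 (adjusted p = 0.0492) or without any of 5 libraries (adjusted p = 0.0205 to 0.0497), among them vAKI 2, iAKI 5 and controls 6 and 10 of this driver. With females included, the calls of Ptgs2 in Atp6b1v1 pulldowns (0.98, adjusted p = 0.143) and of Ptgfr (-0.59, adjusted p = 0.181) and Slco2a1 (-0.24, adjusted p = 0.322) in Hoxb7 pulldowns were lost, and Ptgs1 (-0.56, adjusted p = 0.0118) and Ptger1 (-0.44, adjusted p = 0.0319) passed in Atp6b1v1 pulldowns.

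Whether a response differed between the Cre domains was tested as an interaction among the males. Ptgs1 and Ptges passed for both injuries, 2 of 10 for iAKI against 7.79% of all genes and 2 of 10 for vAKI against 4.2%. The log2 response of Ptgs1 in Atp6b1v1 pulldowns exceeded that in Hoxb7 pulldowns by 0.96 ± 0.21, adjusted p = 0.00891, for iAKI and by 1.30 ± 0.21, adjusted p = 0.00149, for vAKI. For Ptges the difference was 1.40 ± 0.21, adjusted p = 0.00142, for iAKI and 1.37 ± 0.21, adjusted p = 0.000878, for vAKI. Both genes had higher control levels in the male Hoxb7 pulldowns, and under vAKI Ptgs1 was at 30.96 to 34.05 CPM in Hoxb7 and 30.1 to 38.6 CPM in Atp6b1v1 males, and Ptges at 62.7 to 71.2 and 73.2 to 82.4 CPM. The other 8 genes did not pass for either injury, with errors that do not show the responses to be alike: under vAKI the difference was -0.51 ± 0.58 for Ptgs2 and 0.28 ± 0.28 for Ptger3. Ptger1 under iAKI lay close to the threshold (0.60 ± 0.20, adjusted p = 0.0644) and passed with DESeq2 (adjusted p = 0.0222) or without any of 4 libraries (adjusted p = 0.0337 to 0.0492), namely iAKI 5, vAKI 1 and vAKI 7 of the Atp6b1v1 males and Hoxb7 control 5. With females included, Ptgs1 did not pass for iAKI (0.66, adjusted p = 0.134), nor Ptgs1 (0.65, adjusted p = 0.267) and Ptges (0.81, adjusted p = 0.191) for vAKI.

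In females the Atp6b1v1 pulldowns gave 6 of 10 genes under vAKI (26.4% of all genes) and 0 of 10 under iAKI (10.4%) with edgeR. Under iAKI 2 of the 10, and 5350 of all 21175 genes, had an unadjusted p below 0.05. Under vAKI Ptgs2 was at 55.8, 42.2 and 37.5 CPM, against 7.96, 6.10, 18.2 and 10.3 CPM in controls (2.10 ± 0.64, adjusted p = 0.0139). Ptger4 rose from 7.16 to 14.01 CPM in controls to 25.01 to 46.01 CPM (1.83 ± 0.44, adjusted p = 0.00225). Ptger3 (-1.98 ± 0.33), Ptgfr (-1.63 ± 0.38), Hpgd (-1.46 ± 0.33) and Ptger1 (-0.60 ± 0.17) fell, with adjusted p from 9.36e-05 to 0.00785. In each of these 6 genes the vAKI and control libraries did not overlap, as in 31.2% of all genes. Fos was at 96.6 to 294 CPM in these vAKI females and 4.74 to 17.4 CPM in controls. The sum of intercalated cell markers was 444 to 621 CPM under vAKI and 819.7 to 1212 CPM in controls, without overlap (0 rose and 2 fell of 5), and its part in these changes was not tested. Library vAKI 5 stood apart, with 27.03 CPM of endothelial, 9.23 of fibroblast and 32.3 of podocyte markers against 141 and 173, 74.2 and 91.8, and 151 and 176 in the other 2, and all 6 genes passed without it. Ptgs2 did not pass without vAKI 3 (1.92, adjusted p = 0.0532) or control 8 (1.904, adjusted p = 0.0505), nor in a fit of females alone (2.09, adjusted p = 0.0523). Under iAKI Ptgs2 was at 7.36, 10.9 and 74.5 CPM, the last in iAKI 6, where Fos was at 10.5 CPM, and Ptgs1 passed without that library (0.68, adjusted p = 0.0423).

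In female Hoxb7 pulldowns 3 of 10 genes passed under iAKI (13.4% of all genes): Ptgs2 (-2.30 ± 0.71, adjusted p = 0.0287) and Ptger4 (-1.43 ± 0.47, adjusted p = 0.0383) fell and Ptger3 (1.26 ± 0.31, adjusted p = 0.00821) rose. Ptgs2 was at 4.74, 4.69 and 2.81 CPM under iAKI, at 3.86 CPM in control 1 and at 23.4, 28.1 and 23.8 CPM in controls 6, 9 and 10, the libraries with high Fos. Ptger4 was at 4.16 to 5.62 CPM under iAKI and 8.05 to 19.6 CPM in controls, and Ptger3 at 104.6 to 121 and 31.8 to 80.4 CPM, neither with overlap. These groups did not overlap in 22.8% of all genes. Medians of most marker sums were higher under iAKI as well. The sum for the thick ascending limb and macula densa was 3041 to 4137 against 953 to 2332 CPM, without overlap (2 rose and 0 fell of 4). That of the proximal tubule was 2129 to 3619 against 1289 to 2895 (0 rose and 0 fell of 4). That of the distal convoluted and connecting tubule was 820.2 to 932 against 255 to 852 (1 rose and 0 fell of 3). Principal cell, intercalated cell, leukocyte, and smooth muscle and pericyte sums also had higher medians, with overlap between the groups. Podocyte, endothelial, fibroblast and adipocyte sums had lower medians. The part of these marker sums in the change of Ptger3 was not tested. For Ptgs2 the groups overlapped through control 1, which is the only female Hoxb7 control in the same series of library numbers as the iAKI libraries. With the 2 controls of 3 months in place of controls 6, 9 and 10, none of the 3 passed: Ptgs2 differed by -1.101, adjusted p = 0.464, Ptger4 by -1.06, adjusted p = 0.286, and Ptger3 by 0.85, adjusted p = 0.179. Leaving out any one of controls 6, 9 and 10 or of the 3 iAKI libraries took the call from Ptgs2 (adjusted p = 0.0593 to 0.16) and Ptger4 (0.065 to 0.18), leaving out iAKI 3 took it from Ptger3 (0.061), and Ptger1 passed without control 1 (0.54, adjusted p = 0.0205).

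Under vAKI 0 of the 10 genes passed in female Hoxb7 pulldowns with edgeR, where 58 genes in all passed (0.274%) and 2226 had an unadjusted p below 0.05, 1 of the 10 among them (Hpgd, -0.94 ± 0.29, adjusted p = 0.174). Ptgs2 was at 11.6, 25.7, 10.8 and 89.4 CPM, Ptger4 at 7.92, 10.5, 5.55 and 37.2 CPM and Ptger3 at 83.3, 50.1, 52.8 and 23.04 CPM. The last value of each, from vAKI 5, lay beyond the other 3 in the direction seen in vAKI males, and the other 3 came from the libraries whose Cyp27b1 was in the control range. With vAKI 5 as the only vAKI female, the log2 fold changes were 1.503 for Ptger4, 2.18 for Ptgs2, -1.04 for Ptger3 and -1.24 for Ptgfr. These rest on 1 library, so no call is drawn from them. Hpgd passed without control 1 (-1.17, adjusted p = 0.0284), which had the lowest level of the 4 controls.

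Tested as interactions, the Hoxb7 responses differed between the sexes in 3 of 10 genes under iAKI (10.5% of all genes) and 5 of 10 under vAKI (16%). As female minus male log2 response, the iAKI differences were -3.09 ± 0.93 for Ptgs2, 0.96 ± 0.32 for Ptges and 1.12 ± 0.22 for Ptger1. The vAKI differences were 1.07 ± 0.31 for Ptgs1, 1.12 ± 0.32 for Ptges, 0.79 ± 0.23 for Ptger1, 1.71 ± 0.43 for Ptger3 and 1.90 ± 0.50 for Ptgfr. None of these 8 passed with the other female controls. Without vAKI females 1, 2 and 3 only vAKI 5 was left in its group, so passing cannot be judged there. The vAKI differences were then 0.55 for Ptgs1, 0.64 for Ptges, 0.55 for Ptger1, 0.54 for Ptger3 and 0.08 for Ptgfr. The principal cell sum in Hoxb7 females was 1104 to 2434 CPM in controls, 1438 to 2854 under iAKI and 1154 to 2110 under vAKI. In Hoxb7 males it was 2694 to 3439, 1005 to 1254 and 1110 to 1213 CPM. Its part in the sex differences was not tested. Single libraries of the Hoxb7 groups also decided calls. Under iAKI Ptgs2 did not pass without iAKI 2 or 3 or control 6, 9 or 10 (adjusted p = 0.0507 to 0.119), Ptges did not pass without any of 12 libraries (adjusted p = 0.0508 to 0.161), iAKI 1, 2 and 3 and controls 6 and 9 among them, and Ptgs1, Ptger3 and Ptger4 passed without control 1 (adjusted p = 0.04, 0.00671 and 0.0275) or without vAKI 5 (0.048, 0.026 and 0.0167). Under vAKI Ptgs1 did not pass without vAKI 1 (0.0639), Ptger1 without vAKI 3 (0.0539) and Ptges without control 6 (0.0527). Ptgs2 and Ptger4 passed there without vAKI 5 (-3.07, adjusted p = 0.00502, and -2.42, adjusted p = 0.000592) or without control 1 (adjusted p = 0.0394 and 0.0421). In the Atp6b1v1 pulldowns 0 of the 10 genes passed for iAKI and 0 for vAKI, as no gene did with edgeR (0% and 0% of all genes; 676 and 1756 genes at an unadjusted p below 0.05, of the 10 genes 0 and 1).

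In control kidneys both drivers were compared with total kidney RNA and with each other, with sex as a covariate. Of the 10 genes, 7 differed between Hoxb7 pulldowns and total RNA (66.6% of all genes), 6 between Atp6b1v1 pulldowns and total RNA (63.8%), and 5 between the drivers (9.93%). Pulldowns hold RNA made within 4 hours and total RNA holds all, so differences of cell type and of RNA stability cannot be told apart. Pulldowns and total RNA may share mice, which the labels do not pair. The median log2 difference of all genes from total RNA was 0.107 in both drivers.

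Ptges was above total RNA in every pulldown. It was at 26.5 to 54.4 CPM (median 38.1) in the 21 total RNA libraries, at 70.1 to 183 CPM (median 129) in the 10 Hoxb7 controls and at 63.4 to 117 CPM (median 75.3) in the 11 Atp6b1v1 controls. The log2 differences were 1.79 ± 0.11, adjusted p = 9.03e-19, and 1.07 ± 0.11, adjusted p = 1.16e-11. Ptgs1 was higher in Hoxb7 pulldowns (median 74.5 CPM against 38.2; 0.93 ± 0.11, adjusted p = 2.98e-10), whereas the Atp6b1v1 pulldowns were at 33.4 CPM (-0.08 ± 0.11, adjusted p = 0.556). As Atp6b1v1 minus Hoxb7, Ptgs1 differed by -1.01 ± 0.13, adjusted p = 9.14e-08, with -1.38 in males and -0.72 in females. The same difference of Ptges (-0.72 ± 0.13, adjusted p = 0.000104) was -1.198 in males and -0.26 in females, where it did not pass (adjusted p = 0.463). The principal cell sum was 2694 to 3439 CPM in male and 1104 to 2434 CPM in female Hoxb7 controls. In Atp6b1v1 controls it was 535 to 804 and 722 to 1009 CPM. Its part in these differences was not tested. Ptgs2 was above total RNA in both drivers (1.09 ± 0.22, adjusted p = 3.13e-05, and 0.80 ± 0.22, adjusted p = 0.00156), with overlapping groups, and in Atp6b1v1 females alone it did not pass (0.55, adjusted p = 0.201).

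Among the receptors, Ptgfr was higher than in total RNA in both pulldowns, with medians of 148 and 179 CPM against 72.2 (1.10 ± 0.13, adjusted p = 7.83e-10, and 1.37 ± 0.13, adjusted p = 7.58e-13). Ptger4 was also higher in both (0.79 ± 0.13 and 0.69 ± 0.13; 0.43, adjusted p = 0.0805 in Atp6b1v1 females alone). Ptger1 and Ptger3 did not pass in either. Ptger1 lay close to the threshold in Hoxb7 pulldowns (0.20 ± 0.09, adjusted p = 0.0602) and passed without the control libraries of high Fos (0.34, adjusted p = 0.00406) and in males alone (0.44, adjusted p = 0.0105). Ptger3 passed in Hoxb7 females alone (-0.64, adjusted p = 0.00455). Ptger2 passed between the drivers (adjusted p = 0.0039), with 7 to 21 reads in Atp6b1v1 and 0 to 12 in Hoxb7 controls, and not in females alone (adjusted p = 0.177). It also passed in Atp6b1v1 pulldowns against total RNA (adjusted p = 0.00444), and not in males alone (adjusted p = 0.096). No fold is given at these counts.

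Both genes of uptake and breakdown were lower in the Hoxb7 pulldowns than in total RNA: Slco2a1 (-0.90 ± 0.10, adjusted p = 4.16e-11) and Hpgd (-1.02 ± 0.16, adjusted p = 2.92e-07). In the Atp6b1v1 pulldowns Slco2a1 was lower (-0.52 ± 0.09, adjusted p = 4.03e-06) and Hpgd did not pass (-0.16 ± 0.15, adjusted p = 0.387), with 0.27, adjusted p = 0.0733 in males and -0.89, adjusted p = 0.00219 in females. Hpgd was higher in Atp6b1v1 than in Hoxb7 pulldowns (0.86 ± 0.18, adjusted p = 0.00055), by 1.05 in males and, without passing, by 0.34 in females (adjusted p = 0.506). Slco2a1 was also higher in Atp6b1v1 than in Hoxb7 pulldowns (0.38, adjusted p = 0.0178). It differed by 0.51 in males and, without passing, by 0.14 in females (adjusted p = 0.684). The sum of 6 leukocyte markers was also higher in Atp6b1v1 controls, with a median of 134 CPM against 72.7 (ranges 83.4 to 163 and 44.02 to 98.02); its part in the level of Hpgd was not tested.

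**Figure D4:**
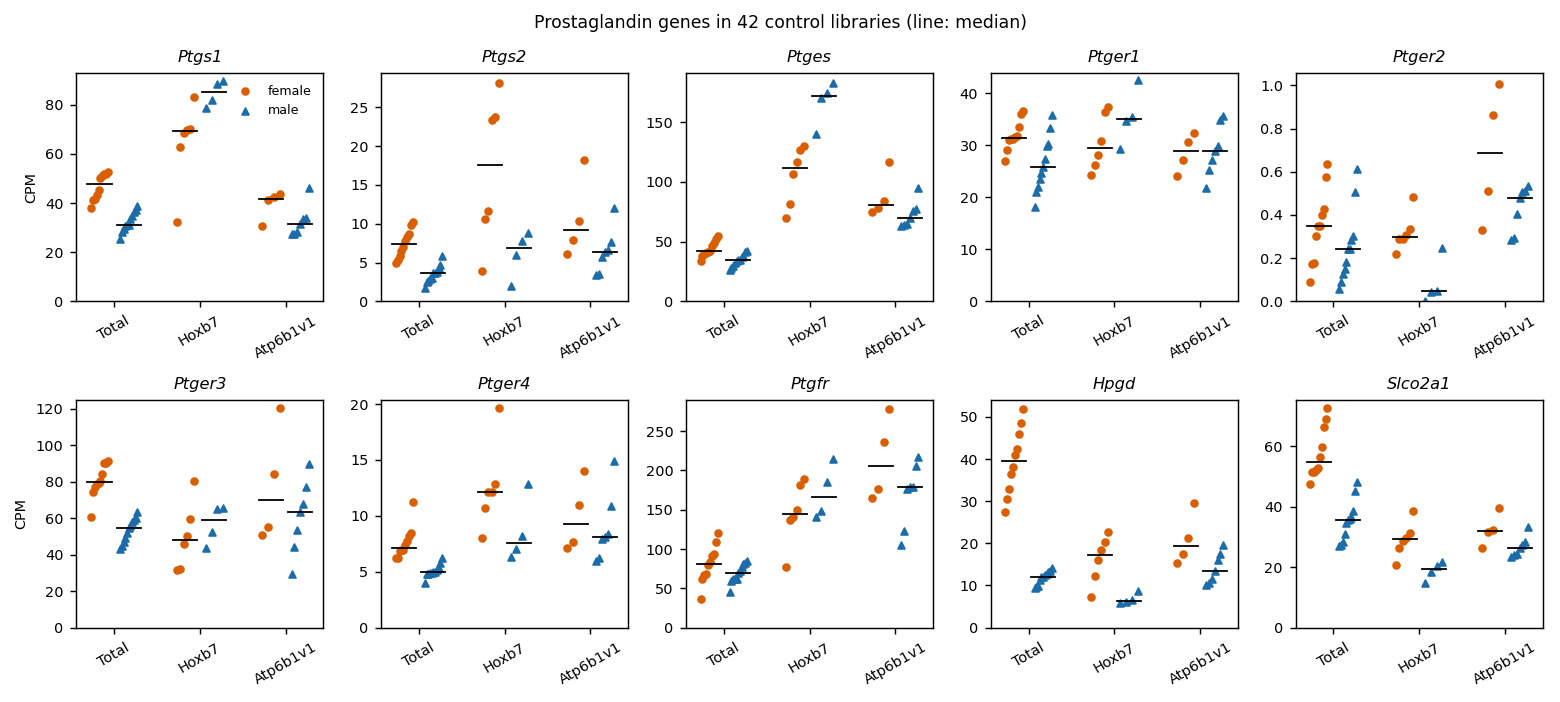
Level of each gene in CPM (y axes, linear, from 0) in the 42 control libraries, by total kidney RNA, Hoxb7 pulldown and Atp6b1v1 pulldown, with females as circles, males as triangles and black lines at the median of each sex. Ptges lies above total RNA in every pulldown, and Hpgd in total RNA separates females from males, at 27.4 to 51.8 and 9.47 to 14.1 CPM.

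Females and males were also compared within the controls, a comparison added after the values had been seen. In total kidney RNA Hpgd was at 27.4 to 51.8 CPM (median 39.6) in 10 females and 9.47 to 14.1 CPM (median 12.00) in 11 males, without overlap (female minus male 1.73 ± 0.15, adjusted p = 9.26e-13). In all, 7 of 10 passed, against 29.4% of all genes: Ptgs1 (0.51 ± 0.11), Ptgs2 (1.08 ± 0.27), Ptges (0.34 ± 0.10), Ptger3 (0.58 ± 0.15), Ptger4 (0.57 ± 0.15) and Slco2a1 (0.70 ± 0.10) were likewise higher in females. In Hoxb7 controls 5 of 10 passed (10.3% of all genes), the female minus male difference being 1.25 ± 0.23, adjusted p = 0.000214, for Hpgd, 0.63 ± 0.16 for Slco2a1, 1.45 ± 0.39 for Ptgs2 and -0.67 ± 0.15 for Ptges. Ptger2 also passed, at 5 to 12 reads in females and 0 to 5 in males, for which no fold is given. The principal cell sum of the Hoxb7 controls was 1104 to 2434 CPM in females and 2694 to 3439 CPM in males, without overlap. Its part in these sex differences was not tested. Without controls 6, 9 and 10 and the total RNA libraries of high Fos, Hpgd alone passed in Hoxb7 controls (1.09, adjusted p = 0.00954), and Ptgs2 (0.49, adjusted p = 0.748), Ptges (-0.47, adjusted p = 0.18) and Slco2a1 (0.48, adjusted p = 0.233) did not, while Ptgfr passed in total RNA (0.40, adjusted p = 0.0269). In Atp6b1v1 controls 0 of 10 passed with edgeR (4.08% of all genes), and Hpgd differed by 0.56 ± 0.20, adjusted p = 0.136. There 1 of the 10, and 2854 of all 21175 genes, had an unadjusted p below 0.05. Age was not balanced, since 2 of the Hoxb7 females and 3 of the Atp6b1v1 males were of 3 months; among controls of 5.5 months, Hpgd differed by 1.75, adjusted p = 4.22e-09, in total RNA, 1.16, adjusted p = 0.00342, in Hoxb7 and 0.78, adjusted p = 0.0948, in Atp6b1v1 controls, Ptger2 did not pass in Hoxb7 controls (adjusted p = 0.0921), and Ptger1 passed in total RNA (0.33, adjusted p = 0.0277).

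Other genes of the pathway were read from a list of 30 (14 phospholipases, 8 terminal synthases, 4 receptors and 4 genes of breakdown and export). In the male Hoxb7 pulldowns 3 rose and 5 fell under vAKI and 1 rose under iAKI, and in the male Atp6b1v1 pulldowns 3 fell under vAKI and 3 rose under iAKI. Of all genes, 35.5%, 6.13%, 14.6% and 8.51% passed in these comparisons, and the counts of 8, 1 and 3 of 30 in the first 3 of them lie below these shares, and that of 3 of 30 in the last lies near its share. The 30 had median log2 fold changes of 0.11, -0.08, 0.05 and 0.22 in these comparisons, against 0 for all genes in each. Reductases that act on oxidised prostaglandins fell under vAKI: Ptgr2 (-1.12 and -0.75) and Zadh2 (-0.54 and -0.36) in Hoxb7 and Atp6b1v1 pulldowns, and Ptgr1 (-0.96) in Hoxb7 pulldowns. The exporter Abcc4 (-0.60) fell in Hoxb7 pulldowns and the prostaglandin D synthase Hpgds (-0.86) in Atp6b1v1 pulldowns. The phospholipase Pla2g4a, which releases arachidonic acid, fell under vAKI in Hoxb7 pulldowns (-0.64), where Pla2g12a rose (0.83). Under iAKI in Atp6b1v1 pulldowns Pla2g4a (0.92), Pla2g4c (1.96) and the reductase Cbr1 (0.92) rose. In Hoxb7 pulldowns the prostacyclin receptor Ptgir rose under both injuries (1.33 and 1.45) and the thromboxane receptor Tbxa2r under vAKI (1.68), at group means of at most 1.35 CPM.

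The genes whose log2 levels were most like each member over the 48 pulldowns were listed, among 15130 genes with a mean of at least 10 reads, as a description of libraries that share treatments and drivers. Ptgs2 was nearest to Pxdc1 (Pearson's r = 0.933), Socs3 (0.898) and Hilpda (0.887), and Ptger4 to Nfkbiz (0.944), Ccnl1 (0.943) and Trib1 (0.943). Ptger3 was nearest to Mmachc (0.936) and Ptgfr to Spopl (0.889). Ptgs1 was nearest to Gprc5b (0.91), and Ptges to Tmem45b (0.738) and then to Ptgs1 itself (0.734). Hpgd was nearest to Csf1r (0.792), a receptor gene of macrophages, and Slco2a1 to Cp (0.737). Among the members, Ptgs2 and Ptger4 varied together (0.844), and Ptger3 varied against Ptgs2 (-0.726) and Ptger4 (-0.879). Ptger2 was left out for its low counts.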

How the data were processed

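RNA sequencing of 48 pulldown and 21 total RNA libraries was analysed from the deposited table of read counts per gene symbol, which are not normalized. Per the labels and the study's methods, the authors converted and adaptor-trimmed reads with CASAVA 1.8.2, trimmed them with Trimmomatic 0.36 (leading and trailing 10, minimum length 30), aligned them to mm10 with STAR 2.5.3a and made the counts with HTSeq 0.6.1p2 at default settings; HTSeq leaves out reads that match several places. Libraries were made with an Illumina TruSeq RNA kit; whether it kept strand and which annotation gave the symbols are not given in the sources used here.

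Groups, sexes and ages were taken from the sample labels, and 0 columns were left unmapped. Testing kept every gene whose counts summed to 2 or more, and used edgeR 4.0.16 (R 4.3.3; trimmed mean of M-values, quasi-likelihood test, Benjamini-Hochberg adjustment over the 21175 genes). Passing means adjusted p below 0.05; the study's additional log2 fold of 1 was an alternative. The injury and driver comparisons were fitted on the 22 males of 5.5 months, as the study presents males because females varied more; the control comparisons on 42 controls with sex as a covariate; and the female and sex comparisons on 43 pulldowns of 5.5 months, with a group for each driver, treatment and sex; and females against males within controls on the 42 controls, with a group for each kind of library and sex. The 4 fits had common dispersions of 0.0444, 0.0473, 0.0606 and 0.0436. Named genes are the 10 members, listed genes of the pathway, the 3 genes most correlated with each member, and markers on the cell type lists; Fos, Cyp27b1 and Ttc33 were chosen after their values were seen. For correlations between genes log2 CPM had a prior count of 2. For those with marker sums 0.05 CPM was added to the level of the gene, and nothing to the sum. The members and lists were chosen with earlier results of these data known. Alternatives were DESeq2 1.42.0 and its size factors, other filters, other samples, terms for replicate number or series of library numbers, and each library left out. The scripts were tested on simulated data. Figures were drawn with matplotlib 3.10.9 in Python 3.11.15. The lowest chi-square per gene between any of 121 replicate pairs was 9.67, so no pair differed by less than sampling noise. Results on 1 withheld item are not reported here.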

Additional observations from a re-analysis of the deposited data

Results flagged for a closer look

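Each of the 10 genes was read in each group of 4 or 8 libraries of 1 kind of RNA, treatment, sex and age, 90 readings in all. Of these, 6 held a library far from the others, where chance flags about 1 in 20 independent readings. Readings of different genes share libraries and are not independent. Ptgs1 was at 32.3 CPM in the female Hoxb7 control 6, the lowest of 4. Ptges was lowest, at 60.7 CPM, and Ptger4 highest, at 37.2 CPM, in the female Hoxb7 library vAKI 5, the only one of its group with Cyp27b1 above the controls. Ptger4 was highest of 8 in the female total RNA library 17, at 11.2 CPM, one of those with raised Fos. Hpgd was lowest of 4 in the male Atp6b1v1 library vAKI 2, at 4.74 CPM. Ptger2 was highest of 8 in the male total RNA library 2, at 0.615 CPM.

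Responses that differed between the Cre domains, as Atp6b1v1 minus Hoxb7 on the log2 scale in males, were those of Ptgs1 under iAKI (0.96) and vAKI (1.30) and of Ptges under iAKI (1.40) and vAKI (1.37). Responses that differed between the sexes, as female minus male in Hoxb7 pulldowns, were those of Ptgs2 (-3.09), Ptges (0.96) and Ptger1 (1.12) under iAKI, and of Ptgs1 (1.07), Ptges (1.12), Ptger1 (0.79), Ptger3 (1.71) and Ptgfr (1.90) under vAKI. None of the sex differences passed with the other female controls in place of controls 6, 9 and 10. Without vAKI females 1, 2 and 3 a single vAKI female was left in the Hoxb7 pulldowns. Whether the differences under vAKI pass cannot be judged in that fit.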

How the results depend on the processing

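Of 1440 values of single genes under alternatives other than leaving out a library, 1319 kept their side of the threshold, 75 lost and 46 gained a call, and 0 called values changed sign; 64 values that passed in neither fit changed sign. Of 3440 values with a library left out, 45 lost and 43 gained a call, again with 0 called sign changes.

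The number of genes that passed, of 10, changed by over 1.5 times as follows. For iAKI in male Hoxb7 pulldowns, 3 became 1 with the fold threshold, 1 with both sexes and 5 with library series; for vAKI, 7 became 4 with both sexes. In Atp6b1v1 pulldowns 0 became 1 for iAKI with 25 males, and 3 became 6 with both sexes and 5 with library series for vAKI. For vAKI minus iAKI in Atp6b1v1 pulldowns 5 became 3 with the fold threshold. For the difference between drivers, 2 became 1 with the fold threshold, 1 with both sexes and 0 with the replicate block under iAKI, and 0 with both sexes, 0 with the replicate block and 4 with library series under vAKI. In controls, the fold threshold changed 7 to 4 and 6 to 2 against total RNA and 5 to 2 between drivers, where female controls alone gave 1 and the replicate block 3; between the sexes in Hoxb7 controls 5 became 1 without the control libraries of high Fos. In females, iAKI in Hoxb7 pulldowns went from 3 to 0 with females alone and to 0 with the other controls. The iAKI difference from males went from 3 to 6 without vAKI females 1, 2 and 3 and to 0 with the other controls. The vAKI difference from males went from 5 to 0 with the other controls. Counts for vAKI without those 3 females rest on vAKI 5 alone and are left out. The samples left out or exchanged in these fits were chosen after seeing the data. The causes were not tested.

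With each library left out the counts ranged, for iAKI and vAKI, from 3 to 3 and 7 to 8 in male Hoxb7 pulldowns, 0 to 1 and 2 to 6 in male Atp6b1v1 pulldowns, 0 to 4 and 0 to 1 in female Hoxb7 pulldowns, and 0 to 1 and 5 to 6 in female Atp6b1v1 pulldowns. They ranged from 5 to 6 and 4 to 6 for vAKI minus iAKI in the Hoxb7 and Atp6b1v1 males, 2 to 3 and 2 to 2 for the drivers, and 1 to 6 and 4 to 7 for the sexes in Hoxb7 pulldowns, with 0 to 0 in Atp6b1v1 pulldowns.

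The replicate numbers did not pair the samples: over 8 same-numbered pairs of males in 2 treatments the deviations from group means correlated at -0.0887 on average (range -0.419 to 0.194), against 0.00976 in 72 other pairs. With the number as a replicate block among the males, the iAKI calls of Ptgs1 (adjusted p = 0.0656) and Ptger1 (0.0727) in Hoxb7 pulldowns were lost and those of Ptgfr (0.0199) and Slco2a1 (0.0407) gained, and the driver differences were 1.17, adjusted p = 0.0988 (Ptgs1) and 1.62, adjusted p = 0.0659 (Ptges) under iAKI and 1.49, adjusted p = 0.0803 and 1.56, adjusted p = 0.0648 under vAKI. Counts were low for Ptger2, at no more than 28 reads in a library.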
